A study of Mus musculus with 6 samples.

Results

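The 10 genes described here are 9 Toll-like receptors (Tlr1, Tlr2, Tlr3, Tlr4, Tlr6, Tlr7, Tlr8, Tlr9 and Tlr13) and their shared adaptor Myd88. They were chosen by symbol, and all 10 were found among the 41709 genes of the deposited expression table. The study asked what a form of Lrpprc that cannot be hydroxylated does in skeletal muscle. Lrpprc is a mitochondrial RNA-binding protein, and the P27A form carries alanine in place of the proline that is hydroxylated. In male C57BL/6J mice, the tibialis anterior (TA) of one side received a plasmid coding for LrpprcWT and the contralateral TA a plasmid coding for LrpprcP27A. Both plasmids, pCMV6-LrpprcWT-3xFlag and pCMV6-LrpprcP27A-3xFlag, carry mouse Lrpprc with a Flag tag behind the CMV promoter, which is not particular to a cell type. Both muscles were injected with hyaluronidase, electroporated, and collected 2 weeks later, so every library comes from tissue that took up bacterial plasmid DNA. No library from a muscle without plasmid was analysed here. The age of the mice used for RNA sequencing was not given in the sources used here. Each group holds 3 libraries, and expression is given as TPM, a share of the library's transcripts corrected for transcript length and scaled to a sum of 1000000.

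Toll-like receptors recognise molecules of microbes and of damaged cells. Tlr1, Tlr2, Tlr4 and Tlr6 stand on the cell surface and bind bacterial lipids and lipoproteins, whereas Tlr3, Tlr7, Tlr8, Tlr9 and Tlr13 stand in endosomes and bind nucleic acids. Tlr9 binds DNA with unmethylated CpG, which bacterial plasmids carry. All but Tlr3 signal through Myd88, which gathers Irak kinases and leads to NF-κB. Myeloid cells are rich in these receptors, and muscle fibres and other resident cells of muscle express some of them.

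The stretches before the start sites of the 3 genes that fell in the main test and of Tlr9 are shown to set their motif content side by side. κB, IRF and AP-1 factors act downstream of the receptors, and PU.1 is a factor of the myeloid lineage. Each is the 250 bases before the RefSeq start of transcription (mouse GRCm38.p6), 5′ to 3′ on the strand of the gene, with motif matches in capitals. The windows lie at chr9:119340019-119340268 (- strand) for Myd88, chr3:83841609-83841858 (- strand) for Tlr2, chr8:45410381-45410630 (- strand) for Tlr3 and chr9:106222348-106222597 (+ strand) for Tlr9.
Myd88: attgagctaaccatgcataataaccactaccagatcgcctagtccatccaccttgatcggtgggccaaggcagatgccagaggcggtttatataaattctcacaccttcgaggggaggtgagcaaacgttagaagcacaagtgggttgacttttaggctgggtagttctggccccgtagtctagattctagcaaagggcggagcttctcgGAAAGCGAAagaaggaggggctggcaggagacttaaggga
Tlr2: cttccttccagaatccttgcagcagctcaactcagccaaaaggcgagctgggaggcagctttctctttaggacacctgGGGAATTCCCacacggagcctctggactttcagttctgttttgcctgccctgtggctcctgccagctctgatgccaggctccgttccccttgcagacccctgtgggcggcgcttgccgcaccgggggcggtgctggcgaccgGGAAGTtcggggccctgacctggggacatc
Tlr3: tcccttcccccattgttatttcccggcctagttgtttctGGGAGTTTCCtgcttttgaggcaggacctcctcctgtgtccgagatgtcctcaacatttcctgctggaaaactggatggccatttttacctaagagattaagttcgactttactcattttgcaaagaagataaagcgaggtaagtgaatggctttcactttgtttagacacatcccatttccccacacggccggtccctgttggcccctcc
Tlr9: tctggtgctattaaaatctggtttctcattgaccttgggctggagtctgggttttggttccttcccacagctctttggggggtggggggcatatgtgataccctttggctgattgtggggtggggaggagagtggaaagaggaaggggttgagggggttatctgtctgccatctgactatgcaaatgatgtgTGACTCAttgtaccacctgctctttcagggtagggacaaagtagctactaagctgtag
Both strands were searched for the κB consensus, the IRF element GAAANNGAA, the PU.1 core GGAAGT and the AP-1 element TGANTCA. The Myd88 window held an IRF element, GAAAGCGAA, 40 to 32 bases before the start. The Tlr2 window held a κB match 172 to 163 bases before the start, which reads the same on both strands, and a PU.1 core 30 to 25 bases before it. The Tlr3 window held a κB match 211 to 202 bases before the start. The Tlr9 window held no κB, IRF or PU.1 match and an AP-1 element 58 to 52 bases before the start.

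RefSeq windows were at hand for 8 of the 10 genes (10 windows). The κB consensus was in the windows of 2 of these genes (Tlr2 and Tlr3), and 1643 of 32851 windows of all genes held it (5%). The IRF element was in those of 3 (Myd88, Tlr6 and Tlr8) against 7.13% of all windows, and in Tlr6 a pair of matches overlapped. The PU.1 core was in those of 3 (Tlr1, Tlr2 and Tlr6) against 19.7%, and the AP-1 element in that of Tlr9 alone among the 8, against 6.75%. The shares of all genes are per window. Counted per window too, κB was in 2 of the 10, the IRF element in 3, the PU.1 core in 3 and AP-1 in 1. A match of letters describes the window and was not read as a bound site.

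In the table, the 6 libraries listed 17774 to 19053 genes above 0, and their read depth is unknown. Mitochondrially encoded transcripts took 36.0% to 46.1% of the TPM, and Rn18s-rs5, a ribosomal RNA gene, stood at 8874 to 17614 TPM in the LrpprcWT and 37023 to 44435 TPM in the LrpprcP27A libraries. Lrpprc, which holds endogenous and plasmid reads together, was listed at 35.1, 37.0 and 75.2 TPM in the LrpprcWT and 26.9, 29.7 and 26.0 TPM in the LrpprcP27A libraries. The groups did not overlap, as for 44.1% of genes with a mean of at least 0.1 TPM that lay lower. The ratio of the Lrpprc means was 0.561. By qRT-PCR, the paper reports similar Lrpprc mRNA with both plasmids. Over all genes tested, the median difference between LrpprcP27A and LrpprcWT was -0.32 on the log2(TPM + 1) scale, and 87.99% of genes were below 0. LrpprcWT replicate 2 stood between the groups on the first principal component (78.08% of the variance), so results are also given without it. The labels do not tie the libraries to animals, and p-values measure the spread between these libraries.

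Myd88 was the most abundant of the 10 genes in both groups. It lies at chr9:119165000-119170486 (- strand, GRCm39, GENCODE) and has 6 exons. Its level was 8.26, 5.72 and 8.66 TPM in LrpprcWT replicates 1 to 3 and 3.98, 3.15 and 3.83 TPM in LrpprcP27A replicates 1 to 3. Every LrpprcP27A library lay below every LrpprcWT library, and the means were 7.55 ± 1.60 and 3.65 ± 0.442 TPM (SD, n = 3 each). Among the receptors, the surface receptor Tlr2 came next in both groups, and its range did not overlap that of Myd88 in either. From Tlr2 downward, the ranges of all neighbours in the order of mean TPM overlapped. In the LrpprcWT libraries the order was Myd88, Tlr2, Tlr4, Tlr3, Tlr13, Tlr6, Tlr7, Tlr8, Tlr1 and Tlr9, so that Tlr9 stood last. In the LrpprcP27A libraries Tlr9 stood 8th, above Tlr8 and Tlr1, within overlapping ranges.

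**Figure D1:**
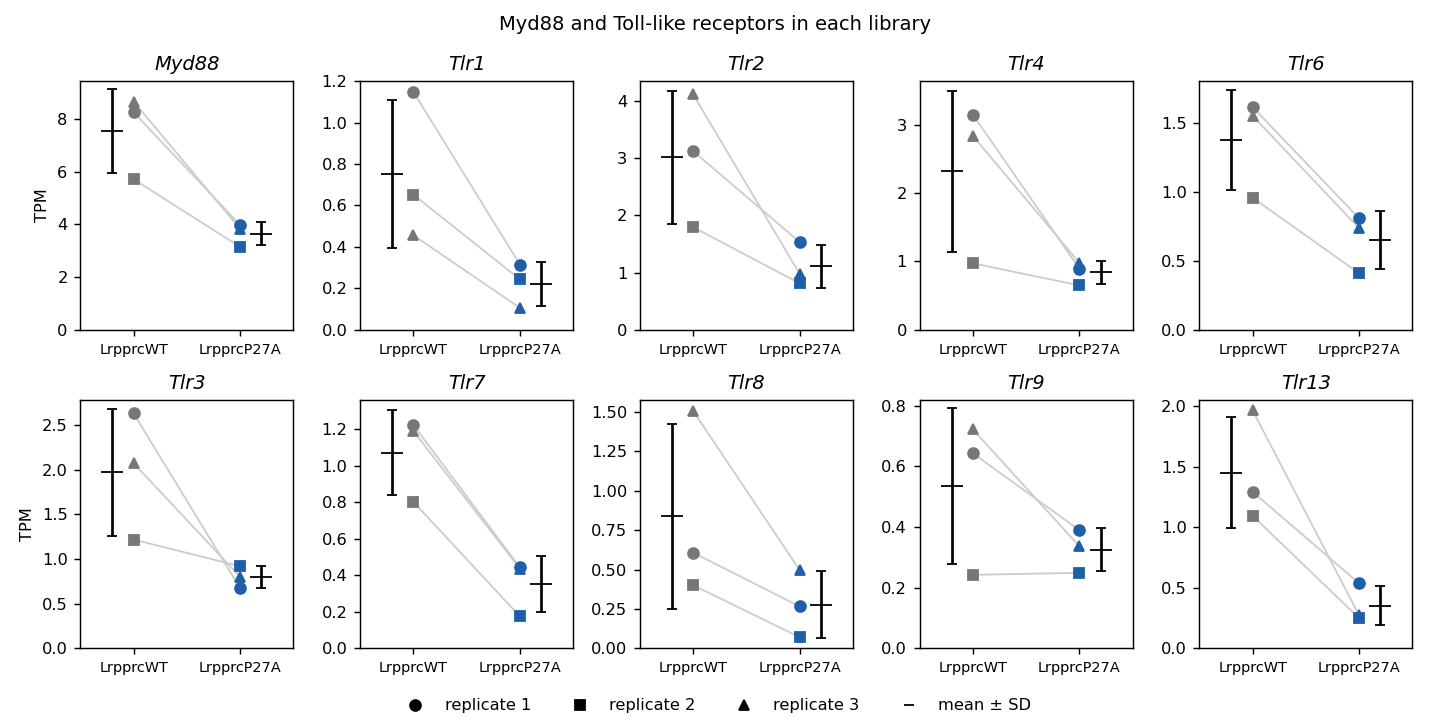
TPM of Myd88 and the 9 Toll-like receptors in each of the 6 libraries, with lines joining libraries of the same replicate number and black bars for the mean ± SD (n = 3). Every LrpprcP27A point of Myd88 is at or below 3.98 TPM and every LrpprcWT point at or above 5.72 TPM, while the groups overlap for Tlr4, Tlr8 and Tlr9.

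The comparison of LrpprcP27A with LrpprcWT asks whether receptor and adaptor transcripts differ when the plasmid codes for the form that resists hydroxylation. Transcripts of Myd88, Tlr2 and Tlr3 fell, none of the 10 genes rose, and the 10 together summed to 13.9 to 25.1 TPM in the LrpprcWT and 6.93 to 9.83 TPM in the LrpprcP27A libraries. The main test, limma on log2(TPM + 1), took genes with a mean of at least 1 TPM, and 5 of the 10 passed that filter (Tlr2, Tlr3, Tlr4, Tlr6 and Myd88). Of these, Tlr3, Tlr4 and Tlr6 had a mean under 1 TPM in the LrpprcP27A libraries and passed through their LrpprcWT values. At an adjusted p under 0.05, 3 of the 5 were lower and 0 were higher, where 23.3% of all tested genes were lower and 1.34% higher. With the replicate number as a block, all 5 tested were lower, against 48.4% of all genes. Their median difference was -0.78, against -0.32 over all genes. All 5 were below 0, and all 5 were lower at an unadjusted p under 0.05, as were 44.2% of all genes. The calls rested on few libraries: leaving out LrpprcWT replicate 1 or 3, or LrpprcP27A replicate 2 or 3, left 0 of the 5 at an adjusted p under 0.05 (3 to 5 at an unadjusted one). The share of all genes called lower was then 2.51%, 0.129%, 4.34% and 3.79% in that order, so calls were lost across the table. Leaving out LrpprcP27A replicate 1 left 2, against 14.5% of all genes, and leaving out LrpprcWT replicate 2 gave 5, against 59.5%. All 5 differences stayed below 0 in each case.

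With libraries rescaled by the median of gene ratios, which sets the median of all genes near 0, 1 of the 5 (Myd88) was called lower, against 6.03% of all genes. All 5 stayed below 0 there, and with the block added 3 were lower (Tlr2, Tlr4 and Myd88), against 15.8% of all genes. A further fit with a filter of at least 0.1 TPM, chosen after the data were seen, took all 10 genes. In it 6 were lower (Tlr1, Tlr2, Tlr3, Tlr7, Tlr13 and Myd88), against 16.5% of the 15795 genes, and with the block 9 were lower, all but Tlr9, against 38.9%. With this filter and median-of-ratios scaling 3 were lower (Tlr7, Tlr13 and Myd88), against 4.27% of all genes, and with the block as well 8 were, all but Tlr3 and Tlr9, against 12.3%. Every LrpprcP27A library lay below every LrpprcWT library in 7 of the 10 genes, where 44.1% of the 15795 genes did so. The count was also 7 under median-of-ratios scaling, where 19.6% of all genes did so, and 2 (Tlr13 and Myd88) under quantile normalization, where 16.1% of 11616 genes did so.

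**Figure D2:**
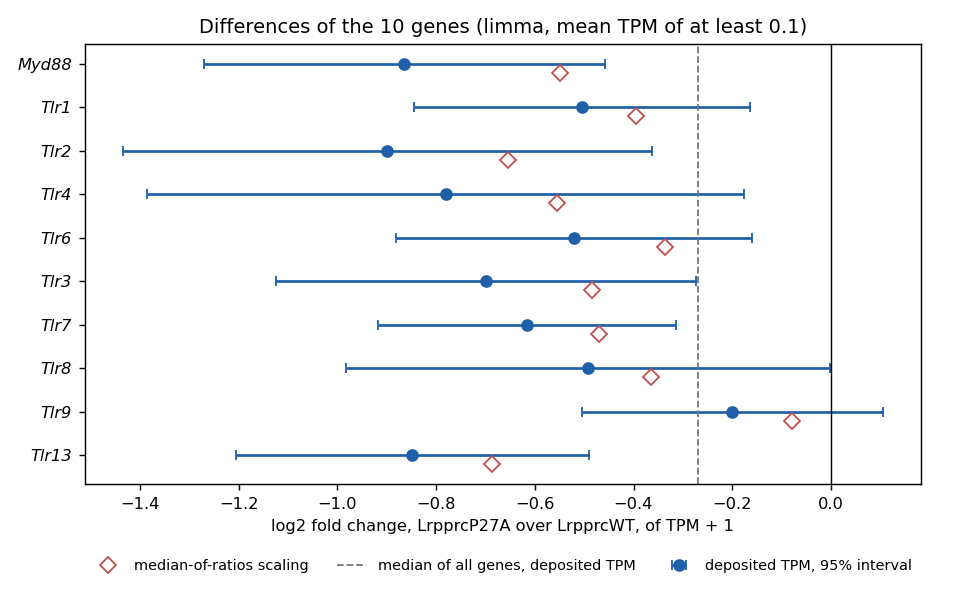
Log2 fold change of TPM + 1 in LrpprcP27A over LrpprcWT for the 10 genes, with limma's 95% interval (blue), the same value under median-of-ratios scaling (open diamonds) and the median of all 15795 genes (dashed line). All 10 points lie below 0, and the interval of Tlr9 alone, -0.50 to 0.10, crosses 0.

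Myd88, through which all of the receptors but Tlr3 signal, fell by 0.86 on the log2 scale (SE 0.17, limma adjusted p = 0.0189). The ratio of the means was 0.484, and LrpprcP27A was lower in 3 of 3 replicate pairs. Under median-of-ratios scaling the difference was -0.55 (limma adjusted p = 0.0287), so the call held. Without LrpprcWT replicate 2 it was -1.03 (limma adjusted p = 0.00325), and without each of the other libraries in turn limma's adjusted p ran from 0.0257 to 0.101. Myd88 made up 34.5% to 45.4% of the summed TPM of the 10 genes in each library. Its exons overlap those of Acaa1a, a peroxisomal thiolase gene on the opposite strand, by 628 bases, and 9.75% of the 100-base stretches of its transcript are shared with Acaa1a. The library kit did not keep the strand, so reads from the shared stretch cannot be told apart. Acaa1a had means of 23.1 TPM in LrpprcWT and 16.7 TPM in LrpprcP27A.

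Among the surface receptors, Tlr2 pairs with Tlr1 or Tlr6 to bind bacterial lipoproteins, and Tlr4 binds lipopolysaccharide. Tlr2 was at 3.12, 1.79 and 4.11 TPM in the LrpprcWT and 1.53, 0.812 and 0.979 TPM in the LrpprcP27A libraries. The groups did not overlap, and Tlr2 fell by 0.90 on the log2 scale (SE 0.23, limma adjusted p = 0.0315). Under median-of-ratios scaling the difference was -0.66 (limma adjusted p = 0.0621), so the call was lost, and it was kept there with the block (limma adjusted p = 0.0252). Leaving out 1 library at a time, limma's adjusted p of Tlr2 ran from 0.00446 (without LrpprcWT replicate 2) to 0.131 (without LrpprcWT replicate 3). Tlr2 lies at chr3:83743576-83749074 (- strand, GRCm39), and its window shown above is the one with both a κB match and a PU.1 core.

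Tlr4 was at 3.15, 0.973 and 2.84 TPM in the LrpprcWT and 0.894, 0.651 and 0.979 TPM in the LrpprcP27A libraries. The groups overlapped by a margin of less than 0.01 TPM, since LrpprcWT replicate 2 lay just below LrpprcP27A replicate 3. The difference of -0.78 (SE 0.27) did not pass without the block (limma adjusted p = 0.0593) and passed with it (limma adjusted p = 0.00101). Without LrpprcWT replicate 2 it was -1.12 (limma adjusted p = 0.00325). Without LrpprcWT replicate 1 or 3 it was -0.58 or -0.64 (limma adjusted p = 0.177 or 0.208).

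Tlr6 was at 1.62, 0.958 and 1.55 TPM in the LrpprcWT and 0.808, 0.410 and 0.737 TPM in the LrpprcP27A libraries, with no overlap. Its difference of -0.52 (SE 0.17) likewise missed the threshold without the block (limma adjusted p = 0.0543) and passed with it (limma adjusted p = 0.00721). Tlr1 was at 1.15, 0.652 and 0.457 TPM in the LrpprcWT and 0.315, 0.244 and 0.106 TPM in the LrpprcP27A libraries. The groups of Tlr1 did not overlap either, and the ratio of its means was 0.295. In the fit at 0.1 TPM its difference was -0.50 (limma adjusted p = 0.0498), and under median-of-ratios scaling -0.40 (limma adjusted p = 0.117). Tlr1 and Tlr6 are neighbours on chromosome 5 and share 259 stretches of 100 bases, 8.79% of those of Tlr1 and 6.10% of those of Tlr6, in which reads cannot be assigned to one of them. Summed, the 4 surface receptors stood at 0.379 of their LrpprcWT mean in LrpprcP27A.

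Of the endosomal receptors, Tlr3 binds dsRNA and signals through Ticam1 and not Myd88. It was at 2.63, 1.22 and 2.07 TPM in the LrpprcWT and 0.675, 0.920 and 0.801 TPM in the LrpprcP27A libraries. The groups did not overlap, and Tlr3 fell by 0.70 on the log2 scale (SE 0.19, limma adjusted p = 0.0363). Under median-of-ratios scaling the difference was -0.48 (limma adjusted p = 0.0735), so the call was lost, with the block too (limma adjusted p = 0.0681). Leaving out 1 library at a time, Tlr3 passed only without LrpprcWT replicate 2 (limma adjusted p = 0.00395) and reached 0.137 without LrpprcWT replicate 3.

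Tlr7 and Tlr8 bind ssRNA, and Tlr13 binds bacterial ribosomal RNA. All 3 lie on the X chromosome. Tlr13 was at 1.29, 1.09 and 1.96 TPM in the LrpprcWT and 0.536, 0.249 and 0.272 TPM in the LrpprcP27A libraries. Its ratio of means, 0.243, was the lowest of the 10 genes, and the groups did not overlap. Tlr7 was at 1.22, 0.802 and 1.19 TPM in the LrpprcWT and 0.443, 0.175 and 0.436 TPM in the LrpprcP27A libraries, again with no overlap. In the fit at 0.1 TPM the differences were -0.85 for Tlr13 (limma adjusted p = 0.0216) and -0.62 for Tlr7 (limma adjusted p = 0.0277). Tlr8 was at 0.608, 0.401 and 1.51 TPM in the LrpprcWT and 0.266, 0.0711 and 0.496 TPM in the LrpprcP27A libraries. Its groups overlapped, because LrpprcP27A replicate 3 lay above LrpprcWT replicate 2. In that fit its difference of -0.49 did not pass without the block (limma adjusted p = 0.117) and passed with it (limma adjusted p = 0.00760).

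Tlr9, the sensor of plasmid DNA, lies at chr9:106099797-106104082 (+ strand, GRCm39) and has 2 exons. It was at 0.643, 0.242 and 0.722 TPM in the LrpprcWT and 0.390, 0.249 and 0.336 TPM in the LrpprcP27A libraries. LrpprcWT replicates 1 and 3 lay above all LrpprcP27A libraries, and LrpprcWT replicate 2 was the lowest of the 6. The means were 0.536 ± 0.257 and 0.325 ± 0.0709 TPM (SD, n = 3 each), a ratio of 0.607, and the exact two-sided permutation test gave p = 0.4. LrpprcP27A was lower in 2 of 3 replicate pairs, with pair ratios of 0.606, 1.03 and 0.466. In the fit at 0.1 TPM the difference of -0.20 had a 95% interval of -0.50 to 0.10 (limma adjusted p = 0.263), and it did not pass with the block either (limma adjusted p = 0.147). That interval leaves room for a fall as well as for no difference at this level of expression. Without LrpprcWT replicate 2 the ratio was 0.476 and the difference -0.35. Without LrpprcWT replicate 1 or 3 the difference was -0.14 or -0.11. Under quantile normalization the Tlr9 difference turned to 0.03. None of the transcript of Tlr9 was shared with another gene at 100 bases.

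By the exact permutation test, Tlr4 and Tlr8 gave p = 0.2, and the other 7 of the 10 genes gave p = 0.1, the smallest that 3 against 3 libraries allow. Of the 15795 genes, 5.43% had a more negative difference than Tlr2, 6.06% than Myd88 and 6.33% than Tlr13. At the other end, 61.2% had a more negative difference than Tlr9. These ranks are on log2(TPM + 1), where the added 1 shrinks the differences of low genes such as Tlr9 most. With 0.1 added instead, the Tlr9 difference was -0.50, and the median of the genes with a mean of at least 1 TPM was -0.37.

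A share of each receptor in the summed TPM of the 9 receptors of its own library does not change when a library is multiplied by a constant factor, as in nuclear or median-of-ratios scaling (quantile normalization is not of that kind). The share of Tlr9 was 4.17%, 2.98% and 4.40% in the LrpprcWT and 6.65%, 6.59% and 6.54% in the LrpprcP27A libraries. It was higher in all 3 LrpprcP27A libraries than in any LrpprcWT library, by 2.75 percentage points in the mean. Over the 9 shares compared, the exact permutation p for Tlr9 was 0.1 (0.6 after Benjamini-Hochberg adjustment). The shares of the other 8 receptors overlapped between the groups. That of Tlr13 averaged 11.3% ± 2.61 and 7.01% ± 1.97 (SD, n = 3 each), and that of Tlr2, the largest on average, 22.4% ± 2.43 and 22.2% ± 3.62. These shares were examined after the TPM values were seen. With 3 against 3 libraries the exact test cannot go below p = 0.1, so none of the 9 differences could pass a threshold of 0.05.

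**Figure D3:**
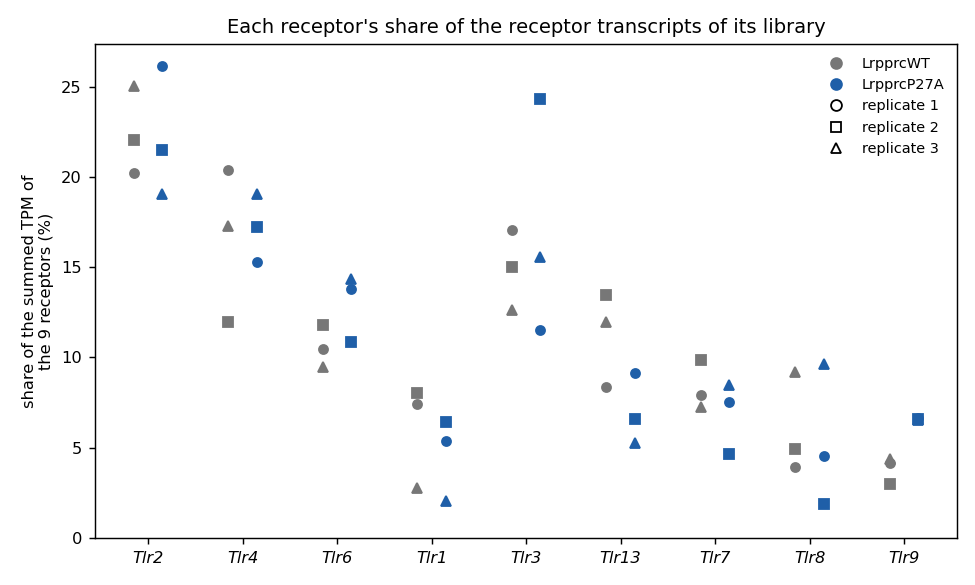
Share of each Toll-like receptor in the summed TPM of the 9 receptors, in percent, for each library of LrpprcWT (grey) and LrpprcP27A (blue). The Tlr9 shares of the 3 LrpprcP27A libraries lie on each other at 6.54% to 6.65%, above the LrpprcWT points at 2.98% to 4.40%.

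The rest of the pathway was taken from 83 genes in lists by role, of which 67 had a mean of at least 1 TPM. Among these, Irak4, Nfkbie, Ly86, Slc15a3, Socs1, Il6, Cxcl10, Ptgs2, Ccl3 and Ccl4 had a mean under 1 TPM in the LrpprcP27A libraries. They passed the filter through their LrpprcWT values. Of the 67, 33 fell and 2 rose, Tab2 and Il12a, where 23.3% of all genes were lower and 1.34% higher. Their median difference was -0.57, against -0.32 over all genes. With the block 49 were lower, against 48.4% of all genes, and under median-of-ratios scaling 16 were, against 6.03%. With both, 29 were lower, against 15.8%. The count of lower genes fell to 8 without LrpprcWT replicate 1, to 0 without LrpprcWT replicate 3 (33 at an unadjusted p under 0.05), to 12 without LrpprcP27A replicate 2 and to 11 without LrpprcP27A replicate 3, and it was 52 without LrpprcWT replicate 2. The share of all genes moved with it, from 0.129% to 59.5% over the same libraries. Of the genes named below, the calls of Cd14, Ctss, Nfkbiz and Cxcl1 were lost without LrpprcWT replicate 3 alone, and that of Unc93b1 without LrpprcWT replicate 1 or 3. Those of Irf7, Nfkbia and Il12a were lost without 4 of the 6 libraries in turn, and those of Irak4 and Tab2 without 5.

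Among the receptors outside the 10 genes, Tlr5, which binds flagellin, was at 1.68, 1.01 and 3.30 TPM in the LrpprcWT and 1.05, 0.933 and 1.54 TPM in the LrpprcP27A libraries. Its difference of -0.40 did not pass without the block (limma adjusted p = 0.240) and passed with it (limma adjusted p = 0.0402). Tlr11 and Tlr12, which bind profilin of parasites, averaged 0.0932 and 0.309 TPM in LrpprcWT and 0.109 and 0.0633 TPM in LrpprcP27A. Both were under the filter.

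Of the co-receptors, chaperones and proteases that receptors need, 11 of 14 tested fell and none rose, with a median of -0.82. Of all genes 23.3% fell. Under median-of-ratios scaling 5 of the 14 were lower, against 6.03% of all genes. Cd14, which hands lipopolysaccharide to Tlr4, was at 6.59, 5.44 and 13.2 TPM in the LrpprcWT and 2.87, 1.53 and 2.41 TPM in the LrpprcP27A libraries. The groups did not overlap, and Cd14 fell by 1.46 on the log2 scale (limma adjusted p = 0.0187). Unc93b1, the chaperone that carries Tlr9 and other receptors to endosomes, was at 17.8, 12.9 and 21.4 TPM in the LrpprcWT and 9.22, 5.52 and 6.69 TPM in the LrpprcP27A libraries. It fell by 1.17 with no overlap (limma adjusted p = 0.0166). Whether its fall differs from the Tlr9 difference was not tested. Ctss, an endosomal protease that cuts receptors, fell by 1.71 (limma adjusted p = 0.0173), the largest fall of its list. The calls of Cd14, Unc93b1 and Ctss held under median-of-ratios scaling. Ly96, the partner of Tlr4 also known as MD-2, gave -0.54 without passing (limma adjusted p = 0.0549; with the block, 0.0104). Cd36, a fatty acid transporter and co-receptor and the most abundant gene of the list, was at 110, 126 and 135 TPM in the LrpprcWT and 92.5, 111 and 142 TPM in the LrpprcP27A libraries, with an overlap and a difference of -0.12 (limma adjusted p = 0.546).

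Of the other adaptors, neither of the 2 tested passed in the main fit. Tirap, which bridges Tlr2 or Tlr4 to Myd88, was at 6.39, 5.51 and 4.17 TPM in the LrpprcWT and 4.56, 5.71 and 5.35 TPM in the LrpprcP27A libraries. Its difference was -0.02 (limma adjusted p = 0.913). Ticam1, the adaptor of Tlr3, was at 7.88, 2.92 and 7.60 TPM in the LrpprcWT and 3.57, 2.03 and 2.87 TPM in the LrpprcP27A libraries. Its groups overlapped through LrpprcWT replicate 2, and its difference of -0.83 passed with the block alone (limma adjusted p = 0.0747 without it and 0.000287 with it).

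Of the kinases and ubiquitin ligases, 4 of 15 tested fell (Irak1, Irak4, Tbk1 and Peli1) and 1 rose, with a median of -0.39. That is close to the 23.3% of all genes, and under median-of-ratios scaling none of the 15 was lower (1 with the block). Irak4, the first kinase to join Myd88, was at 2.06, 1.46 and 2.38 TPM in the LrpprcWT and 0.870, 0.883 and 1.08 TPM in the LrpprcP27A libraries and fell by 0.60 (limma adjusted p = 0.0332). Under median-of-ratios scaling its difference was -0.38 (limma adjusted p = 0.0620, with the block 0.0350). Traf6, the ligase after the Irak kinases, gave -0.04 (limma adjusted p = 0.793). Tab2, which links Traf6 to the kinase Map3k7, rose by 0.41 (limma adjusted p = 0.0457) and was also called higher under median-of-ratios scaling.

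Of the transcription factors, 3 of 10 tested fell (Irf7, Nfkb2 and Irf1), with a median of -0.54, beside 23.3% of all genes. Under median-of-ratios scaling none of the 10 was lower, and with the block as well 4 were. Irf7, which drives type I interferon after Tlr7 and Tlr9, was at 9.31, 3.90 and 10.7 TPM in the LrpprcWT and 3.03, 1.66 and 3.38 TPM in the LrpprcP27A libraries and fell by 1.22 (limma adjusted p = 0.0343). Under median-of-ratios scaling its difference was -0.91, a call lost without the block (limma adjusted p = 0.0709) and kept with it (limma adjusted p = 0.00507). The NF-κB subunits Rela, at -0.62 (limma adjusted p = 0.0666), and Nfkb1, at -0.40 (limma adjusted p = 0.0824), passed with the block alone, at 0.000674 and 0.0176.

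Of the genes listed as inhibitors, which are themselves induced by NF-κB in part, 5 of 11 tested fell and none rose. Their median was -0.40, and 23.3% of all genes fell. Under median-of-ratios scaling 4 of the 11 were lower, against 6.03% of all genes. Nfkbia, the inhibitor that holds NF-κB in the cytoplasm, was at 69.8, 49.0 and 98.7 TPM in the LrpprcWT and 37.6, 26.7 and 33.1 TPM in the LrpprcP27A libraries and fell by 1.09 with no overlap (limma adjusted p = 0.0224). Nfkbiz, a nuclear member of the same family that is listed here by its family and not by a tested role, fell by 2.05 (limma adjusted p = 0.0116). Both calls held under median-of-ratios scaling.

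Of the IL-1 family receptors, which also signal through Myd88, Il1r1 was the one tested, with a difference of -0.51 that passed with the block alone (limma adjusted p = 0.110 without it and 0.00669 with it). Of the target genes, 10 of 13 tested fell and 1 rose, where 23.3% of all genes were lower and 1.34% higher. Their median was -1.59, the most negative of the pathway lists. Under median-of-ratios scaling 7 were lower, against 6.03% of all genes. Of the 13, Il6, Cxcl10, Ptgs2, Ccl3 and Ccl4 passed the filter through their LrpprcWT values, so the counts and the median include genes kept by 1 group. Cxcl1, a neutrophil chemokine, was at 63.1, 20.4 and 81.4 TPM in the LrpprcWT and 9.91, 3.78 and 2.39 TPM in the LrpprcP27A libraries. It fell by 3.11 with no overlap (limma adjusted p = 0.0154), and LrpprcWT replicate 2 was the lowest of its group. Tnf was at 2.31, 1.51 and 2.10 TPM in the LrpprcWT and 1.72, 1.96 and 0.217 TPM in the LrpprcP27A libraries, and its difference of -0.47 did not pass (limma adjusted p = 0.251). Il12a, a subunit of IL-12 and IL-35, rose by 0.87 (limma adjusted p = 0.0206). Ifnb1, the interferon that follows Tlr3, was listed at 0 in all 6 libraries.

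**Figure D4:**
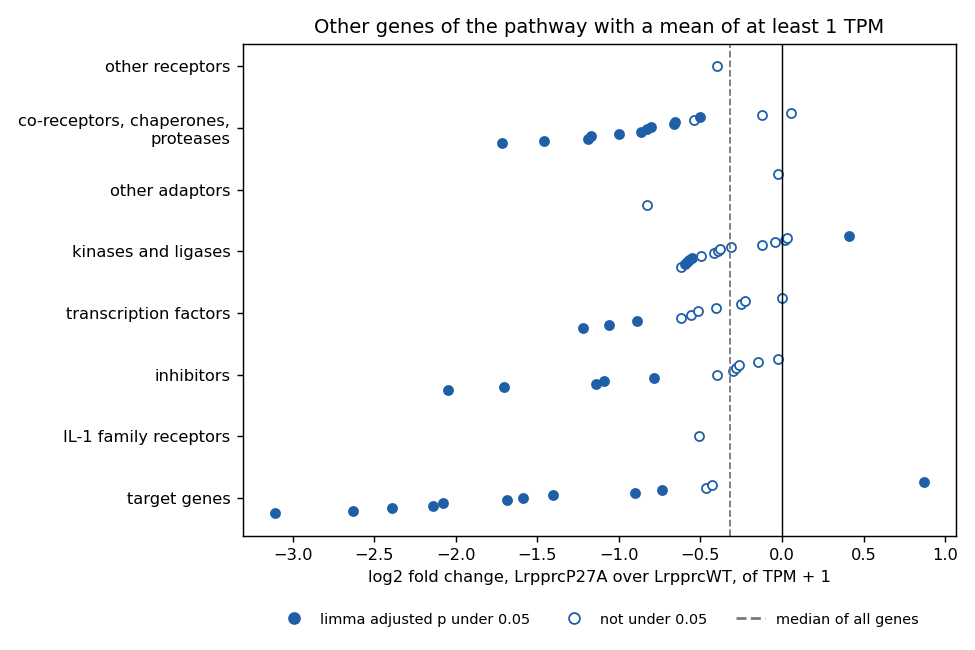
Log2 fold change of TPM + 1 in LrpprcP27A over LrpprcWT for the 67 tested pathway genes by role, filled where limma's adjusted p was under 0.05, with the median of all genes as a dashed line at -0.32. Target genes reach furthest to the left (Cxcl1 at -3.11), and the filled points right of 0 are Tab2 and Il12a.

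Markers of several cell types moved with these genes. The summed TPM of 10 macrophage markers was 231 to 430 in the LrpprcWT and 79.2 to 147 in the LrpprcP27A libraries, a ratio of 0.352. Of these, 8 of the 9 tested fell, where 23.3% of all genes did. Under median-of-ratios scaling 3 of the 9 were lower, against 6.03% of all genes. Cd163, a marker of resident macrophages that was under the filter, went the other way, at 0.315, 0.581 and 0.480 TPM in the LrpprcWT and 1.08, 0.821 and 1.67 TPM in the LrpprcP27A libraries. In the fit at 0.1 TPM, 6 of the 10 macrophage markers were lower and 1, Cd163, was higher. Of all 15795 genes in it, 16.5% were lower and 158 were higher. In the main fit, 5 of 6 fibroblast markers fell (3 under median-of-ratios scaling), with sums of 530 to 848 and 160 to 328 TPM. Of 7 T and NK cell markers 1 was tested and fell (0 under median-of-ratios scaling), with sums of 3.70 to 4.29 and 0.772 to 2.51 TPM. That marker, Nkg7, and the macrophage marker Fcgr1 passed the filter through their LrpprcWT values. In bulk tissue, fewer cells of a type and less RNA per cell cannot be told apart. The part of these cell types in the differences of the 10 genes was not tested.

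Set against the macrophage markers of the same library, the summed TPM of the 9 receptors was 5.40%, 3.51% and 3.81% in the LrpprcWT and 3.97%, 4.78% and 4.83% in the LrpprcP27A libraries, so the ranges overlapped. Against the 6 fibroblast markers it was 1.82%, 1.53% and 2.18% and then 1.79%, 2.37% and 2.44%, which also overlapped. Against the 6 endothelial markers it was 5.81%, 5.50% and 8.25% and then 3.91%, 3.47% and 4.53%, with no overlap. These marker sums are weighted to a few abundant genes. The macrophage sum is mostly Lyz2, at 230, 190 and 348 TPM in the LrpprcWT and 116, 63.5 and 81.3 TPM in the LrpprcP27A libraries. Col1a1 was the largest part of the fibroblast sum in every library, at 491, 324 and 453 TPM and then 164, 58.2 and 73.0 TPM. Cdh5 was the largest part of the endothelial sum in every library.

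Other lists moved less. Beside their counts, 23.3% of all genes fell, and 6.03% under median-of-ratios scaling. Endothelial sums were 148 to 266 and 109 to 150 TPM (2 of 6 tested fell, 0 under median-of-ratios scaling). Satellite cell sums, which are mostly Myod1, were 41.0 to 62.2 and 30.5 to 38.1 TPM (2 of 4 fell, 1 under that scaling). Myf5 of this list had a mean of 0.777 TPM in LrpprcP27A. Like the B cell markers Cd79a (0.917 TPM) and Cd79b (0.967 TPM), it passed the filter through its LrpprcWT values. None of the tested markers of dendritic cells (1), neutrophils (3) or B cells (2) passed, with overlapping sums of 4.72 to 6.35 and 2.85 to 5.20 TPM for dendritic cells, 32.1 to 53.2 and 24.2 to 38.2 TPM for neutrophils, and 2.59 to 4.39 and 1.66 to 3.20 TPM for B cells. The neutrophil marker Mpo was listed at 0 in all 6 libraries and Ly6g in some. Markers of muscle fibres summed to 110450 to 119322 and 101022 to 112504 TPM, far above the other lists, and 1 of 7 fell and 1 rose (0 and 1 under median-of-ratios scaling).

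**Figure D5:**
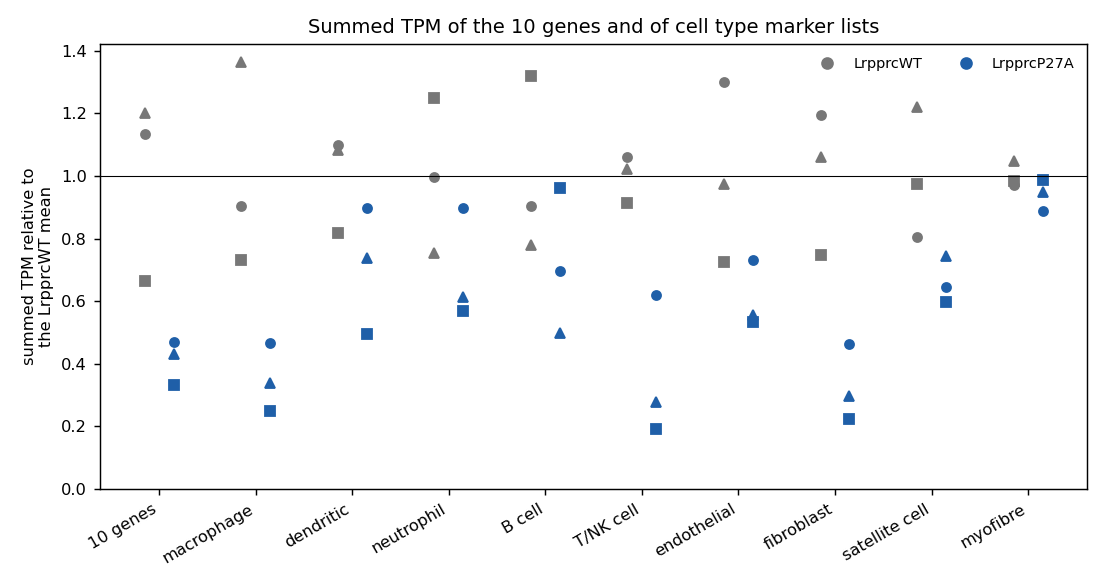
Summed TPM of the 10 genes and of each cell type marker list in every library, relative to the LrpprcWT mean of the list (line at 1). The blue LrpprcP27A points lie below all grey LrpprcWT points for the 10 genes and for the macrophage, T and NK cell, fibroblast and satellite cell lists, and among them for dendritic, neutrophil, B cell, endothelial and muscle fibre lists.

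Outside the 10 genes, the pattern most like that of Myd88 over the 6 libraries was that of Loxl1, Srpx and Lox, with Pearson's r of log2(TPM + 1) at or above 0.999. Loxl1 and Lox code for enzymes that crosslink collagen and elastin. Loxl1 was at 37.8, 22.0 and 40.0 TPM in the LrpprcWT and 13.1, 9.63 and 12.3 TPM in the LrpprcP27A libraries. As for Myd88, LrpprcWT replicate 2 was the lowest of its group and LrpprcP27A replicate 2 the lowest of the other. The nearest to Tlr9 were AU040320 (r = 0.998), Snapin (0.997) and Prr14l (0.995). Snapin was at 61.8, 55.2 and 63.4 TPM in the LrpprcWT and 57.7, 55.7 and 56.6 TPM in the LrpprcP27A libraries, where LrpprcWT replicates 1 and 3 again stood above the other 4 libraries. These genes were picked from 11606 for their likeness over 6 libraries that share the group difference, so the r values describe the pattern and carry no test.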

How the data were processed

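RNA of 6 tibialis anterior muscles was sequenced by the study (3 LrpprcWT, 3 LrpprcP27A). The authors trimmed paired-end reads, aligned them with CLC Genomics Workbench (build GRCm39) and deposited 1 table of TPM per gene. The deposited TPM of each library sum to 1000000, so a value is a share, and one transcript that takes more of a library lowers all others. Counts are not used here and depth is unknown, so the counting error of genes near or below 1 TPM, as most of the 10 are, cannot be given. The kit, per the labels, does not keep the strand.

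Genes with a mean of at least 1 TPM (11611) were tested on log2(TPM + 1) with limma 3.58.1 (R 4.3.3, trend), LrpprcP27A against LrpprcWT, with Benjamini-Hochberg adjustment over all genes tested and a threshold of 0.05. Fold changes of low genes are understated by the added 1. Single values were compared with an exact two-sided permutation test (smallest p 0.1). The code was tested on simulated data. The study's methods put the plasmids in contralateral muscles, and the library numbers recur in both groups. Deviations from the group means correlated at 0.363, 0.528 and 0.356 across genes for same-numbered libraries and at -0.362 to 0.00402 for the others, so the numbers were taken to pair them, with the replicate block as the alternative fit. Other alternatives were the pseudocount, the filter, no trend, the Kruskal-Wallis test, 3 scalings and leaving out each library.

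The 10 genes, the gene lists and the motifs were chosen with earlier results of these data known. Beside the 10 genes, the text names per list the largest call in each direction, the most abundant tested gene and a few defining genes. Acaa1a, Cd163 and other genes named to spell out a small count, the filter or a sum were added after their values were seen. Promoter windows are from RefSeq (GRCm38.p6) and gene positions from GENCODE (GRCm39). No promoter of Tlr4 or Tlr7 and no protein sequence was used here.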

Additional observations from a re-analysis of the deposited data

How the results depend on the processing

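All 10 genes kept a difference below 0 in LrpprcP27A under every alternative run, except Tlr9, which turned to 0.031 under quantile normalization. The calls moved more. Of the tested genes among the 10, 3 were lower in the main fit, 5 with the replicate block, and 1 each under nuclear, median-of-ratios and quantile scaling and with a filter of 5 TPM (where Myd88 was the 1 tested). The count was 0 of 10 with no filter, and 6 and 9 of 10 at 0.1 TPM without and with the replicate block (3 and 8 under median-of-ratios scaling). Of all genes, 2705 were lower and 156 higher (5.45% of calls higher). These numbers became 5619 and 312 with the replicate block, 662 and 221 under nuclear scaling (25% of calls higher), 700 and 609 under median-of-ratios scaling (46.5%), 518 and 493 under quantile normalization (48.8%), and 24 and 7 with no filter. With the replicate block and median-of-ratios scaling together 1839 were lower and 1561 higher. At 5 TPM 1560 were lower, and at 0.1 TPM with the replicate block 6149 were lower and 338 higher. At 0.1 TPM under median-of-ratios scaling 674 were lower and 503 higher (42.7%), and 1949 and 1409 with the replicate block. Of the pathway genes, 33 were lower and 2 higher. The lower ones became 12 (nuclear), 16 (median-of-ratios), 11 (quantile), 0 (no filter), 19 (5 TPM), 53 (0.1 TPM with the replicate block), 12 (0.1 TPM, median-of-ratios) and 29 (replicate block with median-of-ratios). The higher ones became 1 without trend, under nuclear and quantile scaling and at 5 and 0.1 TPM, 0 with no filter, and 6 with the replicate block and median-of-ratios scaling together (4 at 0.1 TPM). The Kruskal-Wallis test called 0 genes in any list after adjustment, and 5530 below and 407 above at p under 0.05 before adjustment (4 of the 5 below among the 10 genes). Its smallest p at 3 against 3 libraries is near 0.05, so adjusted calls would need almost every gene to reach that p. The unfiltered limma fit called 0 of the 10 genes at an adjusted p, and 7 of the 10 and 5996 of all 41709 genes lower before adjustment. Leaving out 1 library gave 15 to 6913 lower and 3 to 304 higher genes, 0 to 5 lower among the 10, and 0 to 52 lower and 0 to 2 higher pathway genes. Of all genes, the highest count of lower ones came without LrpprcWT replicate 2 and the lowest without LrpprcWT replicate 3. On the deposited scale, the replicate block changed no call among the 10 genes other than Tlr4 and Tlr6 at 1 TPM and Tlr4, Tlr6 and Tlr8 at 0.1 TPM, and under median-of-ratios scaling it added Tlr2 and Tlr4 at 1 TPM and Tlr1, Tlr2, Tlr4, Tlr6 and Tlr8 at 0.1 TPM. The cause of these changes was not tested.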
